A study of Arabidopsis thaliana with 9 samples.

Results

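These 41 Arabidopsis genes, each known by its AGI locus code and not by a gene symbol, had a higher array intensity in both altered genotypes of a somatic embryo culture than in wild type. Both altered genotypes change the dose of AGL15, a MADS-domain transcription factor gene, but in opposite directions. The members were chosen by their measured values. A probe set (the set of array features that reads 1 transcript) was a member when the lowest of the 3 35S:AGL15 and 3 double mutant arrays reached at least 1.4 times the highest wild type array and the mean of those 6 arrays was at least 100 intensity units. Of 11933 probe sets annotated to 1 nuclear gene with a locus code only, 41 met the rule (0.344%), and of all 22746 probe sets 98 did (0.431%). Each member gene was read by 1 probe set. The differences from wild type are therefore given as a description, without a test.

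Expression was measured in total RNA on 9 Affymetrix arrays, 3 for each of 3 genotypes in the Columbia background. The genotypes were wild type, 35S:AGL15, in which a constitutive viral promoter drives AGL15, and agl15-4 agl18-1, a double mutant with insertions that disrupt AGL15 and its relative AGL18. Seeds of all 3 germinated in shaken liquid medium with 4.5 µM of the synthetic auxin 2,4-D, and the culture, described as somatic embryo tissue from the shoot apex, was frozen on day 10. By the description of the series, more somatic embryos form in 35S:AGL15 and fewer in the double mutant. For all samples the light stayed on for 23 h, followed by 1 h of darkness, and sugar was present as sucrose at 2%. These conditions did not differ between the genotypes, so their effect on the members was not tested. How many plants or cultures went into a sample is not given in the sources used here.

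As background, somatic embryogenesis is the formation of embryos from vegetative cells, here from the shoot apex of seedlings kept in auxin. MADS-domain proteins such as AGL15 bind A/T-rich DNA elements called CArG boxes and can raise or lower transcription. Neither source of gene names used here gives a product for the members, which have a locus code alone. Protein families named here are general knowledge of the Arabidopsis genome and were not measured. A family is given for 24 members, and 17 are left without one.

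Among 13 measured marker genes of embryo, shoot meristem, leaf, root hair and stomata, 11 lay above background on all 3 arrays of wild type, 11 on those of 35S:AGL15 and 10 on those of the double mutant. Background is the brightest Bacillus control probe set of an array, 13.7 to 40.5 intensity units. CLV3, which marks the shoot stem cell niche, was below background on every array, and all 4 measured embryo genes were above it, as were the 3 leaf genes. The summed intensity of the 4 embryo genes was 2087 to 2650 for wild type, 4625 to 5762 for 35S:AGL15 and 3179 to 4448 for the double mutant. The genotypes did not overlap in this sum. The mean of each of these 4 genes was higher in both altered genotypes than in wild type. Of 8 embryo genes listed, LEC1, LEC2, FUS3 and ABI3 were not measured. The mean was also higher in both altered genotypes for 2 of 2 root hair genes and 1 of 2 stomata genes (MUTE, below background on every array). It was so for 0 of 3 leaf genes and 0 of 2 shoot meristem genes. OLEO3, an oil body protein gene of seeds, had 288, 218 and 444 for wild type, 2511, 1796 and 1485 for 35S:AGL15 and 899, 430 and 772 for the double mutant. PAP85, a seed storage protein gene, had 65.0, 52.5 and 34.7 for wild type, 190.1, 399.97 and 139.8 for 35S:AGL15 and 129, 66.5 and 101 for the double mutant. BZIP53, a transcription factor gene of seed maturation, had 1304, 1428 and 1645 for wild type, 2562, 1778 and 3102 for 35S:AGL15 and 2844, 2218 and 2391 for the double mutant. Double mutant replicate 2 lay within the wild type range for OLEO3. All altered arrays were above wild type for PAP85 and BZIP53, and also for the root hair gene EXPA18. The fourth embryo gene, BBM, overlapped between all genotypes. The part of embryo tissue in the members' values was not tested. AGL18, disrupted in the double mutant, had intensities of 171, 177 and 189 for wild type, 55.8, 52.4 and 90.8 for 35S:AGL15 and 113, 68.5 and 62.6 for the double mutant. Both altered genotypes lay below wild type and overlapped, and AGL18 was above background on every double mutant array. Where its probe set lies relative to the insertion is not given in the sources used here, so these values do not check the mutant label. AGL15 itself was not analysed here. The culture is a mixture of cells, so a different share of a cell type and a different amount of RNA per cell cannot be told apart in any value given here.

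In all, 41 of 41 members were above background on every 35S:AGL15 and double mutant array, and 40 on every wild type array. The median member was 3.07 times the wild type level in 35S:AGL15 and 2.78 times in the double mutant. On the log2 scale of the difference these are 1.62 and 1.47, beside -0.13 and -0.16 over all probe sets. In 35S:AGL15 the differences ran from 1.62-fold (AT1G52720) to 19.0-fold (AT1G04660), and in the double mutant from 1.63-fold (AT1G02810) to 7.2-fold (AT5G50360). The wild type arrays of AT5G50360 read 47.4, 27.9 and 14.3 against backgrounds of 18.0, 21.0 and 13.7, so its fold is imprecise. A difference above 4-fold was reached by 12 members in 35S:AGL15 and by 7 in the double mutant. The 12 include AT5G08460, whose wild type level was near background, and the 7 include AT5G50360. The rule set the lower end of these ranges and left the upper end free.

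**Figure D1:**
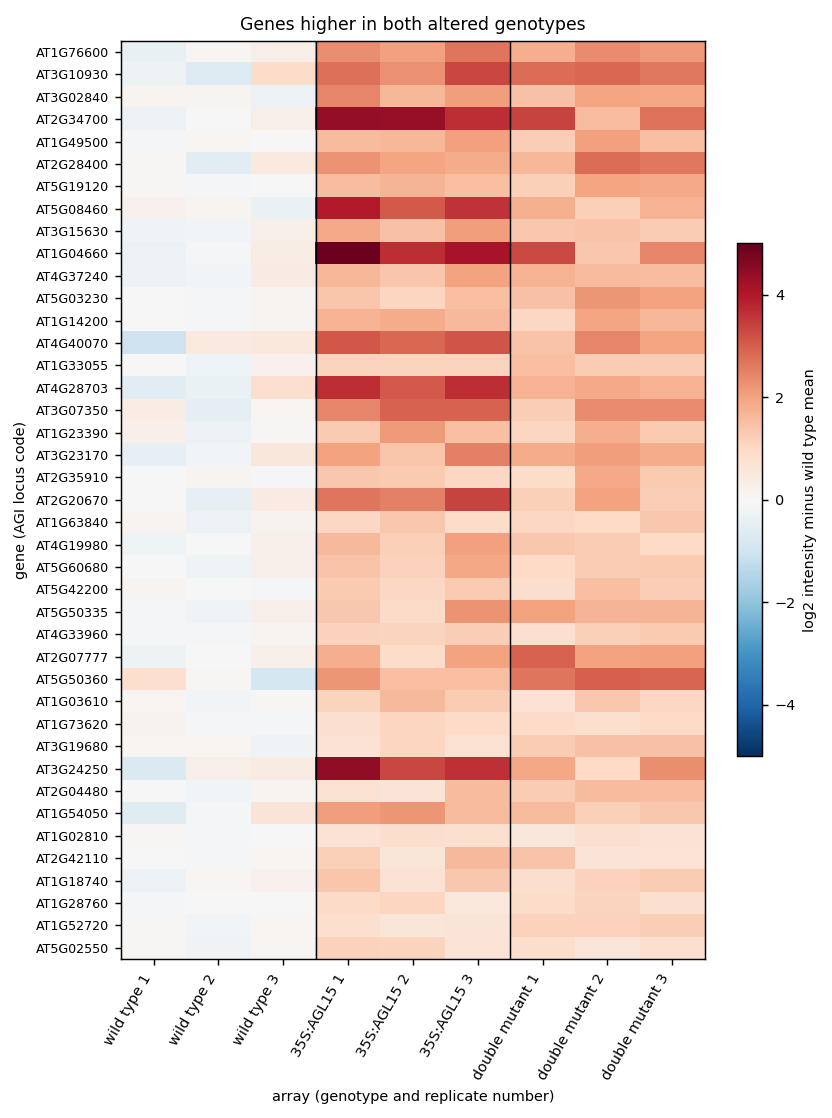
Each row is 1 of the 41 genes and each column 1 array, with the colour giving log2 intensity minus the mean of the 3 wild type arrays (genes in order of the ratio of the lowest altered array to the highest wild type array). Every gene is higher on all 6 altered arrays, as the rule requires, and the deepest colours lie in 35S:AGL15 for AT1G04660, AT2G34700 and AT3G24250.

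The widest gap between wild type and altered arrays was that of AT1G76600, whose lowest altered array was 2.88 times its highest wild type array. AT1G76600 encodes a protein of the PADRE family, small plant proteins named for their response to pathogens and abiotic stress. Its intensities were 453, 619 and 714 for wild type, 2938, 2401 and 3706 for 35S:AGL15 and 2055, 2975 and 2577 for the double mutant. The 2 altered genotypes overlapped, at 5.07-fold and 4.28-fold the wild type level. AT4G37240, the other PADRE member, had 865, 929 and 1379 for wild type, 3258, 2677 and 4134 for 35S:AGL15 and 3466, 3087 and 2999.9 for the double mutant. Wild type replicate 3 stood above the other wild type arrays for both PADRE genes and was still below all altered arrays.

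AT3G10930, a gene for a precursor of an IDA-like signalling peptide, had the second widest gap. IDA, the founder of that family, is a secreted peptide that controls the shedding of floral organs. Intensities of AT3G10930 were 62.4, 45.8 and 141 for wild type, 497, 358 and 755 for 35S:AGL15 and 518, 533 and 459 for the double mutant. Its wild type mean of 83.0 ± 50.7 (SD, n = 3) carried a large spread, with replicate 3 above both other arrays, while the double mutant arrays were close together at 503 ± 39.3. The difference was 6.94-fold in 35S:AGL15 and 6.80-fold in the double mutant.

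Genes of protein turnover made up 7 members. The share of this or any other class over all locus-coded genes could not be given, so class counts are a description only. Among them 5 encode RING-type proteins, a class in which many members attach ubiquitin to proteins and so mark them for degradation. AT1G14200 had 154, 146 and 169.8 for wild type, 520.1, 565 and 476 for 35S:AGL15 and 322, 606 and 499 for the double mutant. AT5G42200 had 1133, 1038 and 961 for wild type, 2601, 2149.7 and 2601 for 35S:AGL15 and 1902, 2915 and 2448 for the double mutant. For both genes the altered genotypes overlapped, and the double mutant had its lowest array in replicate 1.

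AT4G40070, the RING gene with the largest difference, had 19.1, 55.3 and 55.7 for wild type, 336, 281 and 343 for 35S:AGL15 and 104, 209 and 151 for the double mutant. All 3 arrays of 35S:AGL15 lay above all 3 of the double mutant, and wild type replicate 1 was just above the background level of that array. AT2G35910 (2.34-fold in 35S:AGL15 and 2.60-fold in the double mutant) and AT1G63840 (2.15-fold and 2.19-fold) completed the RING genes. In the double mutant AT2G35910 was highest in replicate 2, at 430.4, and lowest in replicate 1, at 217.

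The other turnover genes were AT1G23390, which encodes an F-box protein with Kelch repeats, and AT5G19120, of the aspartyl protease family. F-box proteins choose the substrates of a class of ubiquitin ligases. AT1G23390 had 261, 180.0 and 231 for wild type, 552, 971 and 631 for 35S:AGL15 and 473, 785 and 549 for the double mutant, with 1 high array in 35S:AGL15 (replicate 2) and 1 in the double mutant (replicate 2). AT5G19120 had 1842, 1643 and 1804 for wild type, 5193, 5777 and 4966 for 35S:AGL15 and 3977, 6868 and 6492 for the double mutant. Its wild type and 35S:AGL15 arrays were tight, and the double mutant spanned the whole range of 35S:AGL15. Differences over the 7 turnover genes ran from 2.15-fold to 8.19-fold in 35S:AGL15 and from 2.19-fold to 3.82-fold in the double mutant.

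Genes for secreted, cell wall or glycine-rich proteins also made up 7 members, AT3G10930 among them. AT2G34700 encodes a protein of the family of the pollen allergen Ole e and extensins, which are secreted and found in cell walls. It had 57.3, 72.1 and 86.7 for wild type, 1477, 1454 and 914 for 35S:AGL15 and 737, 204 and 472 for the double mutant. The 3 genotypes did not overlap, and the double mutant spread widely, with replicate 1 more than 3 times replicate 2. The glycine-rich protein gene AT1G04660 had the same order of arrays within the double mutant, with 29.4, 33.9 and 47.2 for wild type, 1082, 472 and 633 for 35S:AGL15 and 356, 91.8 and 198 for the double mutant. AT3G24250, the second glycine-rich protein gene, had 63.7, 130.1 and 142 for wild type, 2273, 1081 and 1323 for 35S:AGL15 and 398, 209 and 522 for the double mutant. The double mutant came closest to wild type in replicate 2, at 1.47 times the highest wild type array, and every 35S:AGL15 array was above every double mutant array.

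AT5G08460 encodes a GDSL lipase, an enzyme class that cleaves ester bonds of lipids and wall polymers. It had 19.6, 18.9 and 13.6 for wild type, 266, 144 and 212 for 35S:AGL15 and 59.5, 39.2 and 57.3 for the double mutant. Only 1 of the 3 wild type arrays was above background, so no fold over wild type is given. The altered genotypes were apart, with every 35S:AGL15 array above every double mutant array. The pectin methylesterase gene AT1G02810, whose enzyme class modifies wall pectin, had the smallest difference of the class with 492, 460.3 and 483 for wild type, 780.0, 876 and 830.2 for 35S:AGL15 and 711, 841 and 786 for the double mutant. Next came AT1G73620, of the thaumatin family, with 817, 681 and 696 for wild type, 1256, 1524 and 1421 for 35S:AGL15 and 1407, 1299 and 1471 for the double mutant. Replicates of these 2 genes were close together, with wild type means of 478 ± 16.3 and 731 ± 74.3 (SD, n = 3), and the altered genotypes overlapped.

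Of the remaining members with a family, 3 belong to the family of plant senescence regulators named after a barley leaf senescence gene. AT2G28400 had 264, 176 and 363 for wild type, 1209, 1019.6 and 939.8 for 35S:AGL15 and 809, 1758 and 1609 for the double mutant. AT5G03230 had 442, 419 and 493 for wild type, 1187, 940.4 and 1293 for 35S:AGL15 and 1248, 2092 and 1836 for the double mutant. In both, double mutant replicates 2 and 3 were the highest of all 9 arrays, whereas replicate 1 lay near or within the range of 35S:AGL15. AT5G60680, the third, had 3547, 3116 and 4315 for wild type, 9673, 8068 and 13913 for 35S:AGL15 and 7285, 8826 and 8918 for the double mutant and was highest in 35S:AGL15 replicate 3.

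A pair of members, AT3G07350 and AT2G20670, belong to a plant family with a nuclease-like fold and little known function. AT3G07350 had 341, 192 and 281 for wild type, 1436, 2064 and 2056 for 35S:AGL15 and 619, 1353 and 1359.6 for the double mutant. AT2G20670 had 55.0, 41.3 and 72.8 for wild type, 347, 311 and 574 for 35S:AGL15 and 125, 220.2 and 129 for the double mutant. Every 35S:AGL15 array lay above every double mutant array for both genes. AT4G28703, a cupin-domain protein, showed the same order with 41.2, 47.0 and 107 for wild type, 766, 496 and 756 for 35S:AGL15 and 196, 221 and 199 for the double mutant.

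AT3G02840, an armadillo-repeat protein gene, had 35.0, 34.7 and 26.0 for wild type, 171, 98.5 and 136 for 35S:AGL15 and 86.7, 124 and 119 for the double mutant. Its wild type arrays were above background, and it was 4.17-fold higher in 35S:AGL15 and 3.43-fold higher in the double mutant. AT1G54050, a small heat shock protein gene, had 148, 211 and 351 for wild type, 942, 1018 and 661 for 35S:AGL15 and 664, 508 and 560.4 for the double mutant. Small heat shock proteins hold unfolded proteins in solution. The wild type spread of AT1G54050 was wide, 236 ± 104 (SD, n = 3), and replicate 3 set its narrow ratio of 1.45.

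For the 17 members given no family, the differences were 1.62-fold to 3.96-fold in 35S:AGL15 and 1.71-fold to 7.2-fold in the double mutant. The 7.2-fold is that of AT5G50360, whose wild type replicate 3 was just above background. AT3G23170 had 1049, 1277 and 2077 for wild type, 5740.2, 3709 and 8147 for 35S:AGL15 and 5150.4, 6003 and 5132 for the double mutant. AT3G15630 had 649, 665 and 880.0 for wild type, 2718, 1997 and 3053 for 35S:AGL15 and 1827, 1954 and 1738 for the double mutant. Both had their highest wild type array in replicate 3 and their highest altered array in 35S:AGL15 replicate 3, and all 35S:AGL15 arrays of AT3G15630 were above those of the double mutant.

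AT1G33055 had 2773, 2388 and 3254 for wild type, 6079, 6010.0 and 6018 for 35S:AGL15 and 7875, 6688 and 6656 for the double mutant. The 35S:AGL15 arrays differed by under 2% of their mean and lay below all 3 double mutant arrays. AT1G49500 had 403, 459 and 442 for wild type, 1283, 1385 and 1786 for 35S:AGL15 and 1032, 1797 and 1217 for the double mutant, with the altered genotypes overlapping. AT5G50360 had 47.4, 27.9 and 14.3 for wild type, 123, 76.5 and 74.6 for 35S:AGL15 and 168, 209 and 200.1 for the double mutant. Every double mutant array of AT5G50360 was above every 35S:AGL15 array, the opposite of the order of AT5G08460.

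AT3G19680 and AT1G52720 also had all double mutant arrays above all 35S:AGL15 arrays. AT3G19680 had 925, 910.0 and 738 for wild type, 1421, 1775 and 1461 for 35S:AGL15 and 2049.7, 2370.0 and 2363 for the double mutant. AT1G52720 had 719, 623 and 743 for wild type, 1256, 1051 and 1072 for 35S:AGL15 and 1541, 1541 and 1638 for the double mutant. The other 10 without a family, among them AT4G19980 (3.07-fold and 2.30-fold), AT5G50335 (2.86-fold and 3.50-fold), AT1G03610 (2.51-fold and 2.05-fold), AT2G04480 (2.00-fold and 2.78-fold) and AT4G33960 (2.24-fold and 2.16-fold, in 35S:AGL15 and the double mutant), overlapped between the altered genotypes.

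**Figure D2:**
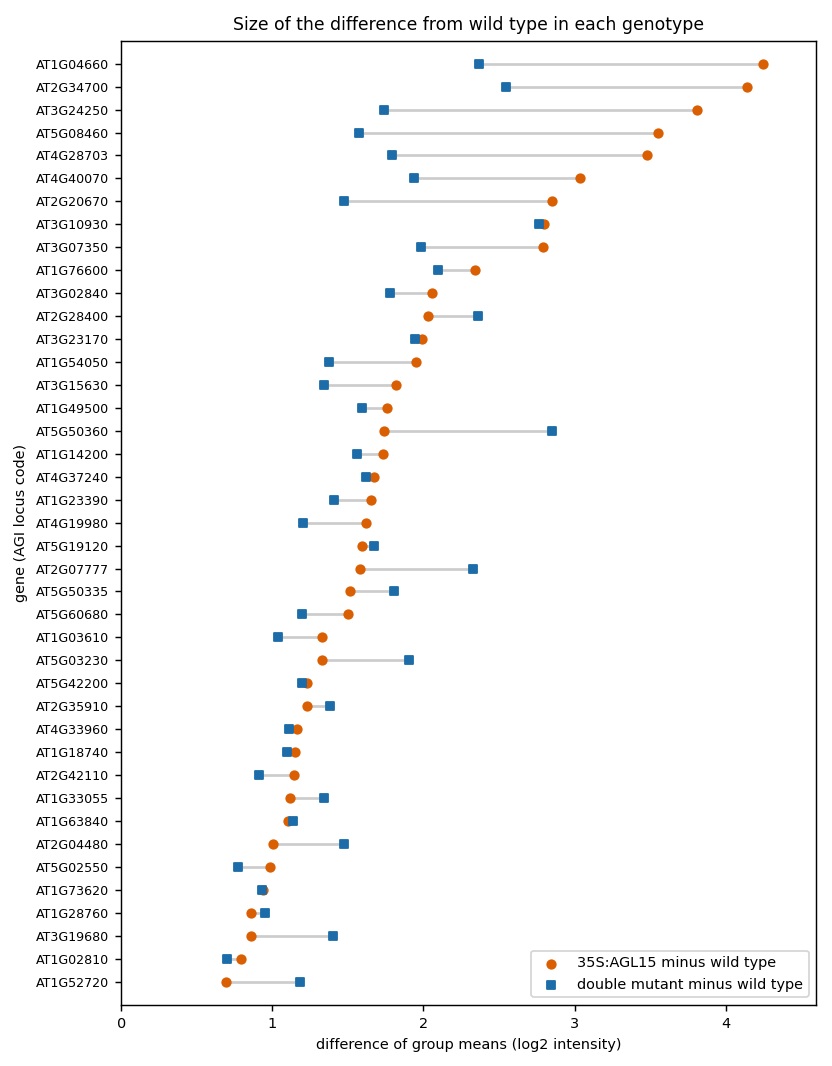
Each row is 1 of the 41 genes, with the difference of group means from wild type on the log2 scale for 35S:AGL15 (circles) and the double mutant (squares), ordered by 35S:AGL15 (n = 3 arrays per group). The widest horizontal gaps belong to AT1G04660, AT2G34700, AT3G24250, AT5G08460 and AT4G28703, with 35S:AGL15 to the right, and AT5G50360 has the double mutant farthest to the right of 35S:AGL15. The wild type level of AT5G08460 is near background, as is wild type replicate 3 of AT5G50360.

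At the edge of the rule, the members just inside were AT5G02550, AT1G52720 and AT1G28760, with ratios of 1.41, 1.42 and 1.43. AT5G02550 had 515, 418 and 505 for wild type, 1047, 1030.0 and 776 for 35S:AGL15 and 881, 729 and 843 for the double mutant. Just outside lay AT1G61260, AT4G17260 and AT2G40010, with ratios of 1.396, 1.392 and 1.35. AT1G61260 had 142, 255 and 268 for wild type, 419.7, 431 and 453 for 35S:AGL15 and 650.2, 374 and 477 for the double mutant, and double mutant replicate 2 alone kept it out. A further 15 locus-coded probe sets passed the ratio with a mean under 100, the brightest of them AT4G18650 at 89.7.

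The rule fixes no order between 35S:AGL15 and the double mutant, so that comparison was tested. It asks whether the higher level of a member differs between the genotype with added AGL15 and the one labelled as mutant in AGL15 and AGL18. The rule does hold the lowest array of each genotype above a floor. By limma over all 22746 probe sets (Benjamini-Hochberg adjusted p under 0.05), 6 of 41 members (14.6%) were higher in 35S:AGL15, beside 10.4% of all probe sets, and 0 were lower, beside 5.27%. At an unadjusted p under 0.05, 7 members were higher, beside 19.5% of all probe sets, and 4 lower, beside 11.8%. In 9 members (22%) the 3 arrays of 35S:AGL15 all lay above the 3 of the double mutant, beside 20.8% of all probe sets, and in 4 (9.76%) all lay below, beside 13.2%. The shares of members were thus near those of all probe sets. The median log2 difference of members, 0.09, was also near that of all probe sets, 0.08. The rule keeps dim probe sets out of the members but not out of all probe sets. Without the dimmest 40% of probe sets, 6 of 38 members were called higher, beside 21.2% of the probe sets kept. A pair of members reached the minimum mean through 1 altered genotype alone, AT5G08460 through 35S:AGL15 (207 against 52.0 in the double mutant) and AT5G50360 through the double mutant, so their difference between the altered genotypes is a description. Among the other 39 members, 5 (12.8%) were called higher in 35S:AGL15 and 0 lower, the arrays of 35S:AGL15 all lay above in 8 (20.5%) and all below in 3 (7.69%).

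The 6 genes called were both glycine-rich protein genes, the Ole e family gene, the GDSL lipase gene, the cupin gene and 1 nuclease-like gene. AT3G24250 was 4.22-fold higher in 35S:AGL15 than in the double mutant (1559 ± 630.2 against 376 ± 158, SD, n = 3, log2 difference 2.08, SE 0.46, limma adjusted p = 0.0238). AT5G08460, whose membership rested on its 35S:AGL15 values, differed by 3.93-fold (207 ± 61.0 against 52.0 ± 11.2), and its p is not given for that reason. AT1G04660 was 3.68-fold higher (729 ± 316 against 215 ± 133, limma adjusted p = 0.0426) and AT4G28703 3.22-fold higher (673 ± 153 against 205 ± 13.7, limma adjusted p = 0.022). For AT2G34700 the difference was 3.02-fold (1282 ± 319 against 471 ± 266, limma adjusted p = 0.049), and for AT2G20670 it was 2.60-fold (411 ± 142 against 158 ± 54.1, limma adjusted p = 0.0333). All 3 arrays of 35S:AGL15 exceeded all 3 of the double mutant in each of the 6 genes. The embryo gene OLEO3 was also higher in 35S:AGL15 than in the double mutant (log2 difference 1.496, SE 0.37, limma adjusted p = 0.0336), while PAP85, at 1.203 (SE 0.44), did not pass (limma adjusted p = 0.102), and BZIP53 and BBM had log2 differences of -0.03 and -0.04 (limma adjusted p = 0.946 and 0.931). Whether these genes and the 6 members share a source was not tested.

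**Figure D3:**
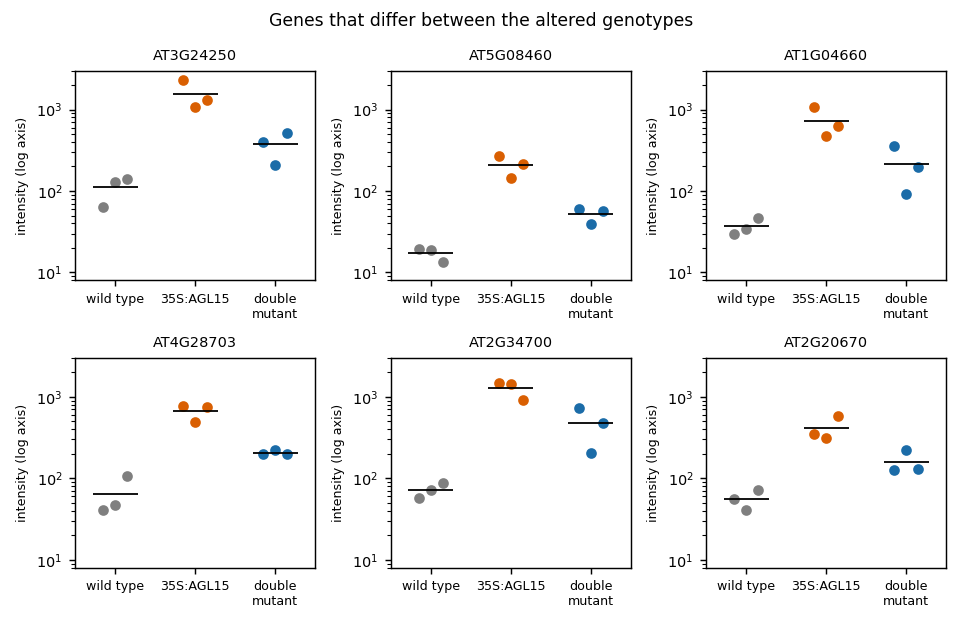
Points are single arrays and bars the mean of 3 arrays, on a log intensity axis, for the 6 genes past the threshold between 35S:AGL15 and the double mutant. In every panel the 3 double mutant arrays lie above the 3 wild type arrays and below the 3 of 35S:AGL15. AT5G08460 was a member only through its 35S:AGL15 values, so its panel is a description.

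Over 20 alternative settings AT3G24250 passed in 14, AT4G28703 in 12, AT1G04660 and AT2G20670 in 9 each and AT2G34700 in 7, with the direction kept in all. With a term for the 4 arrays on which spike-in controls were brighter (the double mutant arrays and 35S:AGL15 replicate 3), which leaves 35S:AGL15 replicate 3 as the only array to compare with the double mutant, 0 members and 290 probe sets in all were called by limma. Without 35S:AGL15 replicate 1, no member other than AT5G08460 was called, and the difference of AT5G08460 is a description.

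The other 35 members did not pass. AT4G40070 had a log2 difference of 1.10 (95% confidence interval 0.08 to 2.11, limma adjusted p = 0.131), and AT5G50360, a member only through its double mutant values, had one of -1.11, given without a test. For the peptide gene AT3G10930 the interval ran from -0.96 to 1.02, so a difference of close to 2-fold either way lies within it. The interval was narrowest for the pectin methylesterase gene AT1G02810, -0.26 to 0.44. AT1G52720 (-0.85 to -0.12) and AT3G19680 (-0.95 to -0.14) had intervals below 0 with limma adjusted p-values of 0.0756 and 0.074. These 2 genes were called lower in 35S:AGL15 under median centring, without the dimmest 40% of probe sets, with an intensity trend and with an offset of 32, and AT3G19680 also with array weights and without 35S:AGL15 replicate 2. AT2G04480 was called lower in 3 of the 20 settings and AT5G03230 in 1. In the other direction, AT4G40070 was called higher in 3 of the 20 and AT3G15630 in 1. Under median centring 2 of the 6 genes above were called higher.

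**Figure D4:**
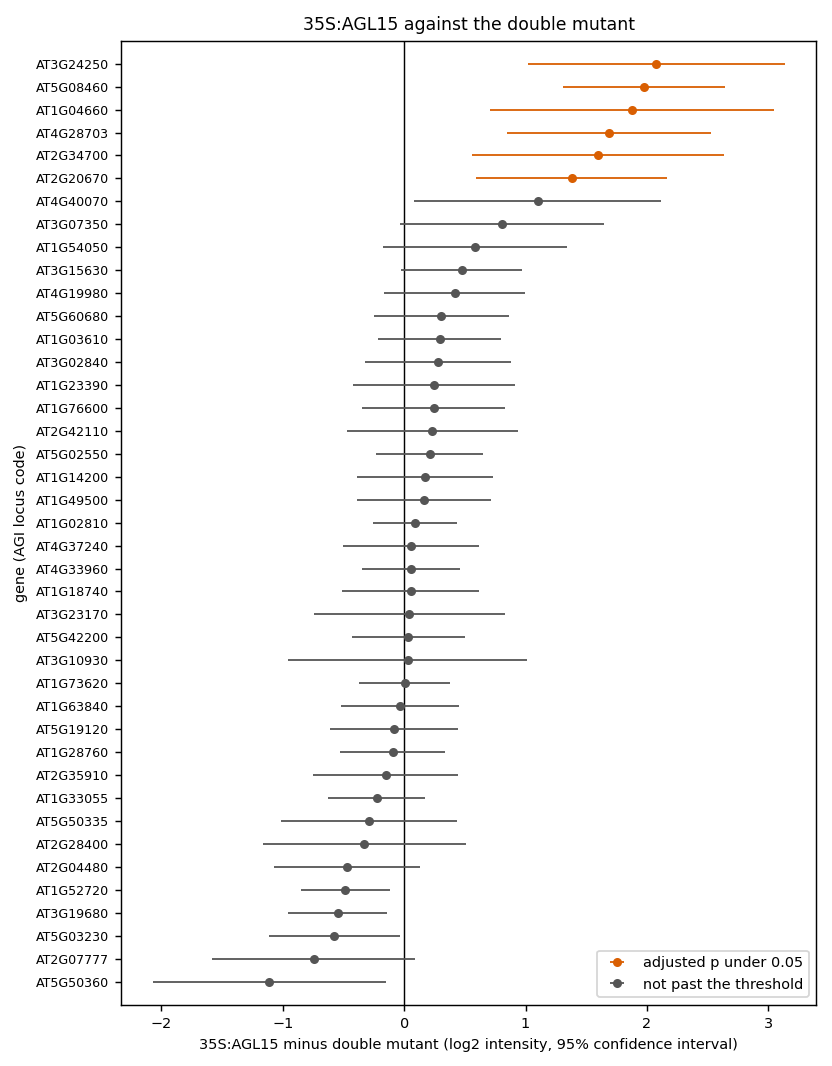
Points give the log2 difference of 35S:AGL15 minus the double mutant for the 41 genes and bars its 95% confidence interval from limma (3 arrays per group). The 6 genes past the threshold lie at the top, from 1.38 to 2.08, and the lowest point is AT5G50360 at -1.11. AT5G08460, among the 6, was a member only through its 35S:AGL15 values and AT5G50360 only through its double mutant values. The points and bars of these genes are a description and not a test.

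The rule set a floor for the members on each altered array. The median member stood at 2.96, 2.64 and 3.1 times its wild type mean on the 35S:AGL15 arrays and at 2.52, 2.88 and 2.81 times on the double mutant arrays. The spike-in controls, bacterial and phage sequences that stand apart from the plant RNA, were at 1.03, 0.941 and 1.68 times the wild type mean on the 35S:AGL15 arrays and at 2.22, 1.69 and 1.4 times on the double mutant arrays.

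The scaling of the arrays set how many members met the rule. Under quantile normalization 40 of the 41 still met it and under median centring 38. Under scaling on the spike-in controls 4 met it, AT2G07777, AT2G34700, AT3G10930 and AT5G50335. Whether these controls track the amount of plant RNA on an array was not tested. Under that scaling the median log2 difference from wild type was 1.38 for 35S:AGL15 and 0.68 for the double mutant, beside -0.36 and -0.96 over all probe sets. All 41 members then remained higher than wild type by their mean for 35S:AGL15 and 39 for the double mutant, and all 3 arrays were above all 3 of wild type for 34 and 16 members.

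**Figure D5:**
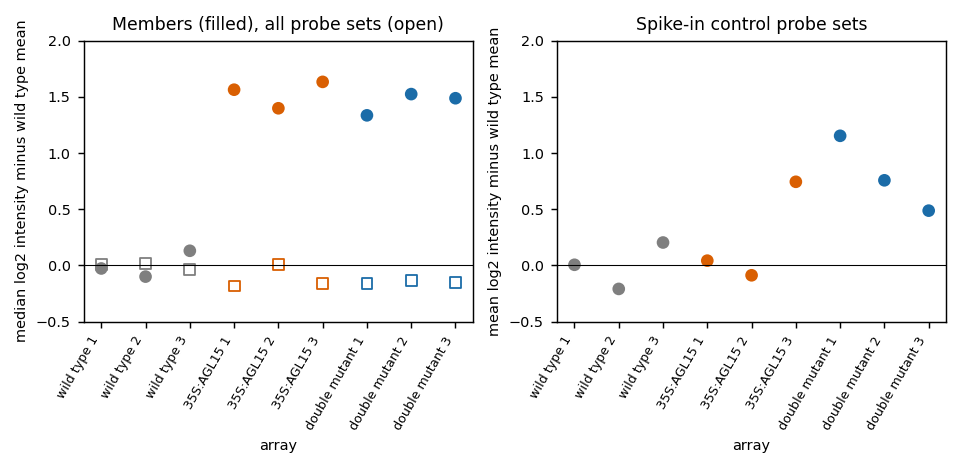
Left, the median log2 intensity of the 41 members (filled) and of all probe sets (open) on each array, minus the wild type mean; right, the mean of 9 spike-in control probe sets in the same unit. Members lie between 1.34 and 1.63 on the 6 altered arrays, while the controls are at 0.49 to 1.15 on the double mutant arrays, at 0.74 on 35S:AGL15 replicate 3 and at -0.21 to 0.20 on the others.

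Within a genotype, 35S:AGL15 replicate 2 was the lowest of its 3 arrays for 24 of 41 members (58.5%), against 37.0% of the 6159 locus-coded probe sets with a mean of at least 100. Double mutant replicate 1 was the lowest for 22 (53.7%, against 42.1%). Wild type replicate 3 was the highest wild type array for 26 (63.4%, against 40.2%), so this 1 array set the bar for most members. Without it, 81 probe sets would have met the rule, though leaving out any array can only loosen the ratio. The median coefficient of variation of members was 16.6% for wild type, 21.5% for 35S:AGL15 and 15.8% for the double mutant, beside 13.0%, 22.7% and 13.4% for those 6159 probe sets.

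The members lay on all 5 chromosomes, 14 on chromosome 1, 7 each on 2 and 3, 5 on chromosome 4 and 8 on chromosome 5. The closest pair in the gene order of TAIR10.1 was AT5G50335 and AT5G50360, with 3 protein-coding genes between them. The 2 measured genes in between did not share the pattern. AT5G50340 had 232, 243 and 172 for wild type, 122, 245 and 91.4 for 35S:AGL15 and 222, 281 and 171 for the double mutant, and AT5G50350 had 303, 294 and 240.4 for wild type, 216, 328 and 198 for 35S:AGL15 and 180.1, 191 and 194 for the double mutant, both overlapping wild type in 35S:AGL15. The next closest members were 69 protein-coding genes apart.

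AT2G07777 needs separate mention, since its code falls in the stretch of chromosome 2 that holds a copy of the mitochondrial genome, and its probe set may read mitochondrial RNA as well. Its intensities were 216, 255 and 307 for wild type, 894, 484 and 1049 for 35S:AGL15 and 1969, 1025 and 1061 for the double mutant, with double mutant replicate 1 high. The mitochondrial probe sets for nad1, ccb452 and nad6 met the same intensity rule, the only 3 with an organelle gene symbol to do so. Others, such as those for nad4, nad7, nad9 and cox2, did not meet it. For ccb452 the arrays read 362, 337 and 362 for wild type, 662, 784 and 623 for 35S:AGL15 and 1576, 1567 and 1443 for the double mutant. Whether mitochondrial RNA contributed to the value of AT2G07777 was not tested.

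By the same intensity rule, 6 of 1482 nuclear probe sets with a gene symbol were higher in both altered genotypes. They were ZCF37, the transcription factor gene WRKY22, the U-box ubiquitin ligase gene PUB19, the expansin gene EXPA8, the isocitrate lyase gene ICL and the kinase gene ATSIK. The mirror rule, with both altered genotypes lower than wild type, was met by 106 of 11933 locus-coded probe sets. Over all 22746 probe sets 238 met it. The median log2 difference from wild type over all probe sets was itself negative (-0.13 and -0.16, in the order 35S:AGL15, double mutant). Under median centring the rule for higher values was met by 100 locus-coded probe sets instead of 41. A mirror count under that scaling is not given, so the higher and lower counts are not compared. Taken one genotype at a time against wild type, with the same ratio and mean, 153 locus-coded probe sets (1.28%) passed for 35S:AGL15 and 249 (2.09%) for the double mutant, and the 41 are those that passed for both. The 2 comparisons share the wild type arrays.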

How the data were processed

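The authors deposited 1 linear intensity per probe set and array. With 2% of probe sets trimmed at each end, the mean was 500.04 to 500.06 on all arrays, so each array had been scaled. The sources used here do not give the software or the summary method. Labelling with biotin started from 4 µg of RNA, per the labels' protocols. The 64 control probe sets were left out. Of the other 22746, the platform annotation gave 1 gene to 13513, and names were updated through the reference gene table (TAIR10.1).

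The log2 of the deposited intensity, with no offset, was fitted by genotype over the 9 arrays in limma 3.58.1 (lmFit, eBayes; R 4.3.3), and the two-sided p-values of 35S:AGL15 against the double mutant were adjusted over 22746 probe sets. The fit was tested on simulated data. Members, lists and tests were chosen with earlier results of these data known. The genes named were the 20 with the widest ratio, those called, and those at the edge of the rule. Others were chosen after their values were seen, as were the protein families, since no source gave a product text for the planned classes. Protein and promoter sequences were not used here. Over all probe sets, 0 of 9 pairs of same-numbered arrays had deviations with a correlation above 0.1 (-0.09 to 0.03). Without the dimmest 40% of probe sets, 3 of 9 were above it, and the correlations ran from -0.49 to 0.36. The labels do not state that the numbers mark a shared batch, and the main fit did not use them as a block. The labels call the samples biological replicates. Alternatives were other scalings, filters, offsets and fits, and leaving out each array. The number of arrays limits the precision.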

Additional observations from a re-analysis of the deposited data

Results flagged for a closer look

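By the limma test of 35S:AGL15 against the double mutant, 6 of 41 members (14.6%) were called higher in 35S:AGL15, beside 10.4% of all probe sets. Among the 39 members whose mean reached the minimum in each altered genotype, 5 (12.8%) were called higher, near the share of all probe sets. Without the dimmest 40% of probe sets, 6 of 38 members were called higher, beside 21.2% of the probe sets kept. The log2 differences of 35S:AGL15 minus the double mutant were 2.08 for AT3G24250, 1.97 for AT5G08460, 1.88 for AT1G04660, 1.69 for AT4G28703, 1.60 for AT2G34700 and 1.38 for AT2G20670, and 35S:AGL15 was the higher genotype in all 6. AT5G08460 was a member only through its 35S:AGL15 values, so its difference is a description. The counts that follow include it where it was fitted. The number of members called higher was 3 or fewer in 10 of 20 alternative settings and 0 in 1 of them. With 3 arrays per genotype, no array was tested for standing apart from its group.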

How the results depend on the processing

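The number of probe sets meeting the rule was 41 and became 84 under quantile normalization, 100 under median centring, 5 under spike-in scaling, 85 with a ratio of 1.2 and 7 with a ratio of 2. A minimum mean of 50 gave 45 and one of 200 gave 38. Leaving out 1 array gave 45 to 81, and leaving out 35S:AGL15 replicate 3 with double mutant replicate 1 (chosen after seeing the data) gave 58. Leaving out an array can only loosen the ratio condition, and all 41 members stayed in each of these cases. The median log2 difference of members from wild type, 1.62 in 35S:AGL15, became 1.86 under median centring, 1.38 under spike-in scaling and 1.49 with an offset of 32, and 1.51 to 1.79 without 1 array. That of the double mutant, 1.47, became 1.75 under quantile normalization, 1.99, 0.68 and 1.31 under the same 3 settings, and 1.38 to 1.61 without 1 array.

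The 6 members called between the altered genotypes became 3 under quantile normalization, 2 in a fit on the 6 arrays alone, 10 with array weights and 10 with an offset of 32 (each 7 higher and 3 lower in 35S:AGL15), 0 with a term for arrays with brighter spike-in controls and 1 to 6 without 1 array, the lowest without 35S:AGL15 replicate 1. Calls in both directions, 2 of them lower, were also made under median centring, with 2 higher. The same held, with 6 higher, without the dimmest 40% of probe sets and with an intensity trend. Leaving out the dimmest 40% removed AT5G08460, AT5G50360 and AT3G02840. Of all probe sets tested, 5.32%, 21.2% and 13.3% were called higher in 35S:AGL15, in that order of settings. The shares were 19.8% with array weights and 14% with an offset of 32. The count of members called was 3 without 35S:AGL15 replicate 3 or double mutant replicate 1, and 2 without double mutant replicates 2 or 3. Without 35S:AGL15 replicate 1 the member called was AT5G08460, a member only through its 35S:AGL15 values. Over all probe sets 3567 were called, and 3198, 867, 7921, 4983 and 290 under quantile normalization, in the fit on 6 arrays, with array weights, with an offset of 32 and with the spike-in term, and 1032 to 4192 without 1 array. With the replicate block, 4 members and 2066 probe sets were called. Of all calls, 66.4% were higher in 35S:AGL15, against 52.3% under quantile normalization, 32.4% under median centring and 94.4% under spike-in scaling. The cause of these shifts was not tested. No direction of the 6 called members, AT4G40070 or AT5G50360 reversed under any setting run. The planned count of promoter motifs and the protein features were not run, for want of sequences here.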
